A study of Mus musculus with 9 samples.

Results

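Ramp1, Ramp3 and Calcrl were followed in primary mouse CD4+ T cells that carried an active form of the transcription factor NFAT2. The rule named 4 genes (Ramp1, Ramp2, Ramp3 and Calcrl), and 3 of them were found among the 16500 genes listed. Ramp2 was not analysed here. The genes were proposed with their values in all 3 groups known, so their levels and differences are given as a description, with no test.

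Calcrl encodes the calcitonin receptor-like receptor, a G protein coupled receptor that reaches the cell surface only together with a receptor activity-modifying protein (RAMP). RAMPs are small single-pass membrane proteins, and the partner sets the ligand: with RAMP1 the receptor binds the neuropeptide CGRP, and with RAMP2 or RAMP3 it binds adrenomedullin. These receptors signal mainly through the stimulatory G protein Gs, adenylyl cyclase and cAMP, a pathway known to dampen T cell activation.

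The cells came from C57BL/6 mice and were transduced with retroviral vectors. The 3 groups were Control (CTRL vector), NFAT2-CA, labelled as the NFAT2_CA vector, and NFAT2-CARIT, labelled as the NFAT2_CARIT vector, with 3 libraries each and 9 in all. CA denotes a constitutively active NFAT2, and RIT denotes changes that weaken its joint binding with AP-1 on DNA. The design asks what active NFAT2 does to transcripts with and without that joint binding. The labels give neither the animals' age nor the number of animals or cultures behind the libraries, so spread and p-values refer to these libraries alone, which may be technical replicates. All values are in CPM, the counts of a gene scaled by the authors to the same total in each library. The steps between low values put the depth at 19942000 to 38185200 reads per library.

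Nfatc1, which encodes NFAT2, ranged from 188 to 228 CPM in Control, from 336 to 395.5 CPM with NFAT2-CA and from 240.5 to 253 CPM with NFAT2-CARIT. The labels do not say whether vector transcripts count towards this gene. All 7 T cell markers examined were present, with a summed level of 4934 to 5102 CPM in Control, 5762 to 6160 CPM with NFAT2-CA and 5470 to 5542 CPM with NFAT2-CARIT. Median absolute deviations of a library from its group mean were 0.0456 to 0.0894 on the log2 scale, the highest in Control replicate 3.

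The 250 bases before each gene's RefSeq start (GRCm38.p6) are shown because Ramp3 and Ramp1 differed from Control in opposite directions while Calcrl varied little. Each line runs 5′ to 3′ on the gene's strand. Capitals mark the core letters bound by NFAT, GGAAA or its reverse complement TTTCC.
Ramp3: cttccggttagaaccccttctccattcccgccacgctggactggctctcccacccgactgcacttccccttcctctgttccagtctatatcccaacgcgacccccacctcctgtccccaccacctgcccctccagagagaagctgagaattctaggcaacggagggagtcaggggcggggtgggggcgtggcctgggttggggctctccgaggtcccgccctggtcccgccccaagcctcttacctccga
Ramp1: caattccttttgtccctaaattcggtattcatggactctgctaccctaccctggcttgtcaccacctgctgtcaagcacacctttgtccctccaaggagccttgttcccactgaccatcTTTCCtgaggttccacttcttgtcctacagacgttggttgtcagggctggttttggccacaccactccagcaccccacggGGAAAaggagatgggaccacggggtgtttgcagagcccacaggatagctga
Calcrl: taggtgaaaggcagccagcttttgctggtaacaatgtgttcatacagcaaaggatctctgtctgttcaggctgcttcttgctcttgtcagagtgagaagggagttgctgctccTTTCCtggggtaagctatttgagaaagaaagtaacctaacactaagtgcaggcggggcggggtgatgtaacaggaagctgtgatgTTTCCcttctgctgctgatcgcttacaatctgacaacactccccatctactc

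The Ramp3 window lies on chromosome 11 (6658283 to 6658532, plus strand), the Ramp1 window on chromosome 1 (91179572 to 91179821, plus strand) and the Calcrl window on chromosome 2 (84425267 to 84425516, minus strand). Ramp3 had 0 matches to GGAAA on either strand, Ramp1 had 2 and Calcrl had 2. Matches began 131 and 51 bases before the start in Ramp1 and 137 and 52 bases before it in Calcrl. The listed Calcrl gene reaches to 84425412 on its 5′ side, so both Calcrl matches, though before the RefSeq start, lie inside it. The Ramp3 window also runs into its listed gene, which begins at 6658521. None of the 3 windows held the AP-1 letters TGANTCA or the cAMP response element TGACGTCA, searched on both strands, and no motif overlapped another. Over 32851 windows of the same length, 55.6% held GGAAA, 6.75% held TGANTCA and 1.55% held TGACGTCA. A missing match says only that these letters are not in this window.

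Ramp3, the RAMP that makes Calcrl an adrenomedullin receptor, was the member with the greatest difference. It is listed on chromosome 11 (6658521 to 6677476, mm10, plus strand; ENSMUSG00000041046.7 in GENCODE M21). The Control libraries stood at 11.4, 11.2 and 12.2 CPM. With NFAT2-CA it was at 118, 116 and 94.7 CPM, and with NFAT2-CARIT at 387, 338 and 313 CPM. The groups formed 3 separate levels with no overlap, NFAT2-CARIT highest and Control lowest.

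Mean Ramp3 was 11.6 ± 0.547 CPM in Control (SD, n = 3), 109 ± 12.8 CPM with NFAT2-CA and 346 ± 37.7 CPM with NFAT2-CARIT. Those means are 9.44-fold and 29.8-fold above Control, and 3.16-fold apart from each other. On log2(CPM + 1), the scale used for all differences below, Ramp3 differed from Control by 3.13 ± 0.09 (SE) with NFAT2-CA and by 4.78 ± 0.09 with NFAT2-CARIT. The NFAT2-CARIT libraries exceeded the NFAT2-CA libraries by 1.65 ± 0.09. Counted from the largest rise among 13090 genes tested, Ramp3 was number 66 with NFAT2-CA and number 11 with NFAT2-CARIT, and number 14 for NFAT2-CARIT against NFAT2-CA. At the start of Ramp3, GENCODE places a pseudogene on the opposite strand, Gm11978. No source used here says whether the counting was strand-specific, so reads of the pair cannot be told apart, and Gm11978 was not analysed here.

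**Figure D1:**
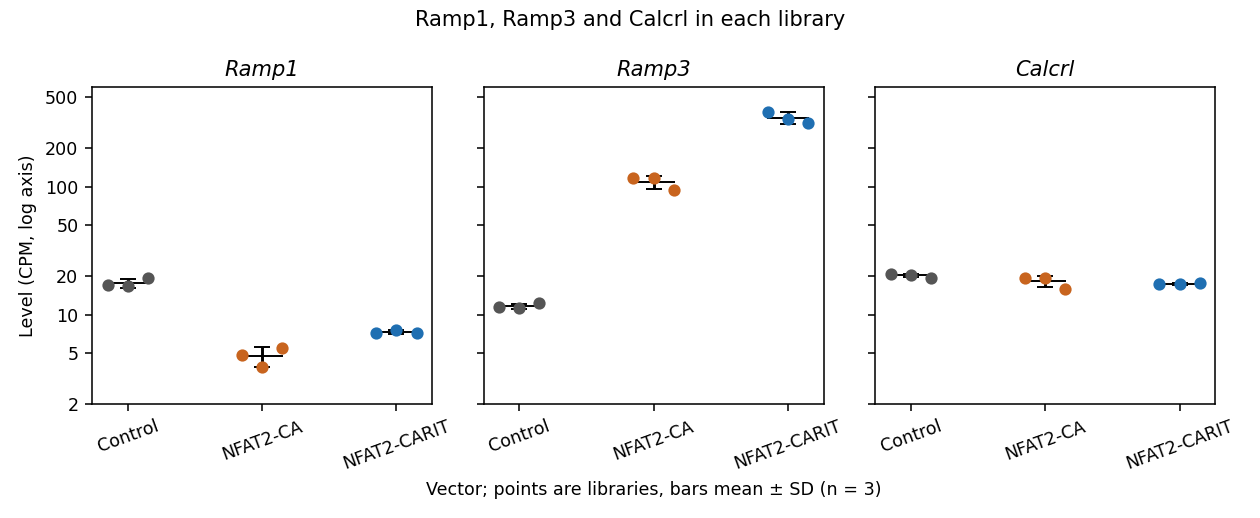
Level of Ramp1, Ramp3 and Calcrl in CPM (log axis) in each library of the 3 groups; points are libraries and bars show mean ± SD (n = 3). Mean Ramp3 is 11.6, 109 and 346 CPM in Control, NFAT2-CA and NFAT2-CARIT, mean Ramp1 is 17.6, 4.71 and 7.28 CPM, and all Calcrl values lie between 16.0 and 20.8 CPM.

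Ramp1, the RAMP that makes Calcrl a CGRP receptor, differed in the opposite direction. It is listed on chromosome 1 (91179822 to 91225197, mm10, plus strand; ENSMUSG00000034353.14). Control libraries stood at 16.9, 16.7 and 19.3 CPM. They were at 4.80, 3.85 and 5.48 CPM in the NFAT2-CA libraries and at 7.17, 7.55 and 7.12 CPM in the NFAT2-CARIT libraries. Again the 3 groups did not overlap, but here NFAT2-CA was the lowest and NFAT2-CARIT lay between.

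Mean Ramp1 was 17.6 ± 1.46 CPM in Control, 4.71 ± 0.817 CPM with NFAT2-CA and 7.28 ± 0.236 CPM with NFAT2-CARIT (SD, n = 3). Control was 3.75-fold above NFAT2-CA and 2.42-fold above NFAT2-CARIT. The differences from Control were -1.71 ± 0.12 with NFAT2-CA and -1.17 ± 0.12 with NFAT2-CARIT, and NFAT2-CARIT exceeded NFAT2-CA by 0.55 ± 0.12. The lowest value, in NFAT2-CA replicate 2, rests on about 92 reads (Poisson 95% interval 3.11 to 4.73 CPM, counting error only). Reads were taken from CPM and the estimated depth, so this and all other Poisson intervals here are approximate. The vector groups are less clear of each other by counting error: the interval of NFAT2-CA replicate 3 (4.58 to 6.51 CPM) overlaps those of NFAT2-CARIT replicate 3 (6.00 to 8.39 CPM) and replicate 1 (6.35 to 8.08 CPM). In a bulk sample, fewer cells that express a gene and less RNA per cell cannot be told apart.

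Markers of other cell types moved with Ramp1 in part. Of 8 myeloid and dendritic markers, 3 were analysed, with a summed level of 11.0 to 13.1 CPM in Control, 6.24 to 6.69 CPM with NFAT2-CA and 8.82 to 11.6 CPM with NFAT2-CARIT. Itgam, an integrin chain of myeloid cells, went from 7.82, 9.29 and 6.83 CPM to at most 0.796 CPM with NFAT2-CA and 1.70 CPM with NFAT2-CARIT. Cd68, a lysosomal protein of macrophages, was instead higher with both vectors (3.69 to 4.51 CPM in Control, 5.57 to 8.81 CPM otherwise), and Itgax, another integrin chain of myeloid and dendritic cells, was at most 0.0945 CPM in Control and 0.112 CPM with NFAT2-CA but at 0.681, 1.34 and 1.20 CPM with NFAT2-CARIT. Of 5 B cell markers, 2 were analysed, and their sum was 2.50 to 3.47 CPM in Control and at most 1.60 CPM otherwise. The sole NK cell marker analysed, Klrk1, was at most 0.708 CPM. Both CD8 T cell markers were analysed, and their sum ran the other way from Ramp1, at 12.5 to 13.7 CPM in Control, 28.4 to 30.8 CPM with NFAT2-CA and 22.6 to 24.0 CPM with NFAT2-CARIT. Most of it was Cd8b1 (at least 12.3 CPM in every library), while Cd8a was at most 0.632 CPM in Control and NFAT2-CA and at 1.34 to 2.00 CPM with NFAT2-CARIT. The part of such cells in the values of Ramp1, Ramp3 and Calcrl was not tested.

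Calcrl, the receptor itself, is listed on chromosome 2 (84330626 to 84425412, mm10, minus strand; ENSMUSG00000059588.13). Control libraries stood at 20.8, 20.4 and 19.4 CPM, NFAT2-CA libraries at 19.3, 19.3 and 16.0 CPM and NFAT2-CARIT libraries at 17.2, 17.2 and 17.6 CPM. All 9 values lie within a narrow band. Both vector groups lay below Control, although NFAT2-CA replicate 1 missed the lowest Control library by less than its counting error (17.7 to 21.1 CPM, approximate Poisson 95% interval). Values of the vector groups overlapped each other.

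Mean Calcrl was 20.2 ± 0.707 CPM in Control, 18.2 ± 1.93 CPM with NFAT2-CA and 17.4 ± 0.249 CPM with NFAT2-CARIT (SD, n = 3). The differences from Control were -0.15 ± 0.09 with NFAT2-CA and -0.21 ± 0.09 with NFAT2-CARIT, and -0.06 ± 0.09 between the vectors. The median difference from Control over all genes tested was -0.06 with NFAT2-CA and -0.09 with NFAT2-CARIT. Without NFAT2-CA replicate 3, Calcrl differed by -0.06 with NFAT2-CA, and with TMM factors the difference with NFAT2-CARIT was -0.11, so both values depend on 1 library or on the scaling. The difference between the vectors ranged from -0.15 to -0.02 when 1 library was left out, -0.15 being the value without NFAT2-CA replicate 3, and was -0.00011 with quantile normalization. Calcrl and Ramp2 are known to be high in blood endothelium. Of 10 endothelial markers, 3 were analysed. Pecam1, which T cells also express, was at 149 to 162 CPM in Control, 135 to 150.0 CPM with NFAT2-CA and 109 to 121 CPM with NFAT2-CARIT, the same order of groups as Calcrl. Egfl7 overlapped between all groups, at 0.756 to 0.977 CPM in Control, 0.843 to 0.922 CPM with NFAT2-CA and 0.7015 to 1.40 CPM with NFAT2-CARIT. Esam was instead highest with NFAT2-CA (0.372 to 0.838 CPM), against 0.0315 to 0.085 CPM in Control and 0.0262 to 0.2 CPM with NFAT2-CARIT.

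Counting libraries that do not overlap, 1 of the 3 members was higher and 2 were lower with NFAT2-CA than in Control, against 30.4% and 38.0% of all genes tested. The same counts held with NFAT2-CARIT, where 31.1% of all genes were higher and 42.0% lower. Between the vectors, 2 of 3 were higher with NFAT2-CARIT and 0 lower, against 19.1% and 25.0% of all genes. The members were chosen on these contrasts, so nothing is read from these shares, and both comparisons with Control share the same 3 Control libraries.

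Levels of different genes were set side by side per kb of merged exon (3022 bases for Ramp1, 1380 for Ramp3 and 4882 for Calcrl in GENCODE M21). In Control the order was Ramp3 at 8.40 ± 0.396, Ramp1 at 5.84 ± 0.484 and Calcrl at 4.14 ± 0.145 CPM per kb (SD, n = 3), each separate from the next in every library. With NFAT2-CA it was Ramp3 at 79.3 ± 9.29, Calcrl at 3.73 ± 0.396 and Ramp1 at 1.56 ± 0.27 CPM per kb. With NFAT2-CARIT it was Ramp3 at 251 ± 27.3, Calcrl at 3.55 ± 0.051 and Ramp1 at 2.41 ± 0.0782 CPM per kb. Ramp1 lay above Calcrl in Control and below it with both vectors. Dividing by the longest transcript of each gene kept this order, with Ramp1 at 7.59, 2.03 and 3.13 and Calcrl at 4.14, 3.73 and 3.55 CPM per kb in Control, NFAT2-CA and NFAT2-CARIT.

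Within each library, Ramp3 per kb was 1.93 to 2.22 times Calcrl in Control, 21.0 to 21.5 times with NFAT2-CA and 62.7 to 79.4 times with NFAT2-CARIT. Ramp1 per kb was 1.31 to 1.61 times Calcrl in Control, 0.322 to 0.554 times with NFAT2-CA and 0.652 to 0.71 times with NFAT2-CARIT. Ramp3 made up 59.0% ± 0.881 of the Ramp1 and Ramp3 transcripts per kb in Control, 98.0% ± 0.558 with NFAT2-CA and 99.0% ± 0.104 with NFAT2-CARIT. NFAT2-CA replicate 3, the lowest of its group for both Ramp3 and Calcrl, had a Ramp3 to Calcrl ratio of 21.0, close to the 21.2 and 21.5 of the other two libraries. These ratios use merged exon lengths and depend on that choice. With the longest transcripts, Ramp3 and Ramp1 lay closer in Control, at 8.70 and 7.59 CPM per kb. The ratios also leave Ramp2 out and describe transcripts, not receptor at the cell surface.

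**Figure D2:**
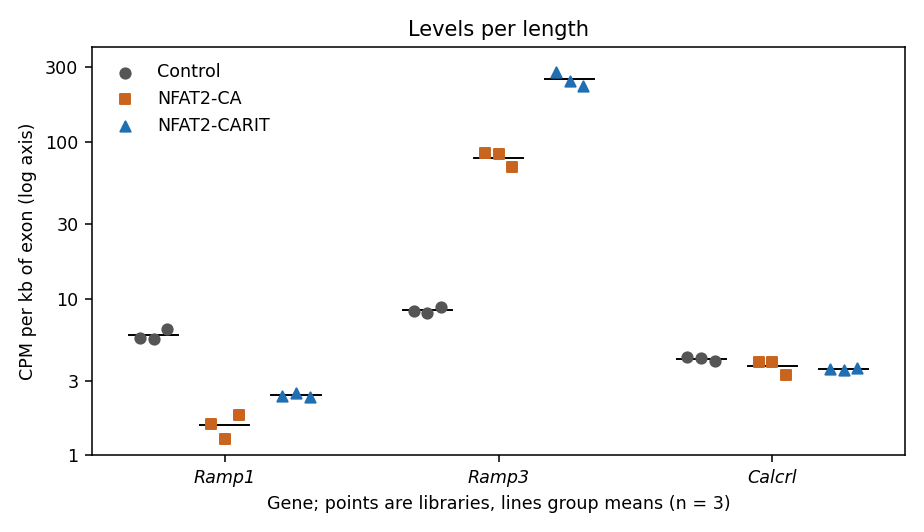
Levels of the 3 genes in CPM per kb of merged exon (log axis); points are libraries, lines are group means (n = 3). Ramp1 lies above Calcrl in Control (5.84 against 4.14) and below it with NFAT2-CA (1.56 against 3.73) and NFAT2-CARIT (2.41 against 3.55), while Ramp3 reaches 79.3 and 251.

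The genes most like each member were found by the smallest root mean square difference over the 9 libraries after centring each gene, among 8754 genes of at least 10 CPM in a group. Nearest to Ramp3 was Rbpms2, an RNA-binding protein gene, at 0.32 log2 units (0.182 CPM in Control, 5.23 with NFAT2-CA, 20.8 with NFAT2-CARIT). Next, at 0.38, was C1s1, a complement protease gene listed at 0 in Control and at 13.6 and 25.4 CPM with NFAT2-CA and NFAT2-CARIT. Mean Rbpms2 reached 10 CPM only with NFAT2-CARIT and mean C1s1 only with the vectors. Both thus became candidates through the groups where they are high. In Control both lay near 0, where the 1 added to CPM compresses differences, while mean Ramp3 was 11.6 CPM. Closeness on this scale is therefore not a like fold difference from Control.

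Ramp1 had closer company. Lfng, which modifies Notch receptors, differed by 0.12 log2 units (176, 57.9 and 78.3 CPM in Control, NFAT2-CA and NFAT2-CARIT), Abcb1a, a drug efflux pump gene, by 0.13 (22.6, 5.52 and 8.39 CPM) and Chst10, a sulfotransferase gene, by 0.15 (24.7, 7.95 and 12.1 CPM). For Calcrl the nearest were Polr2b, Trim27 and Ddx49 at 0.04, 0.04 and 0.05, genes that also vary little between the groups.

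Genes beside the members were examined by position, a choice made after the members' values were seen. Of all genes tested, 29.0% rose and 36.5% fell with NFAT2-CA, and 29.2% rose and 41.1% fell with NFAT2-CARIT. The 3 windows hold 6 to 10 tested genes each, too few to set apart from these shares. Of 10 tested genes within 300 kb of Ramp3, 1 rose and 6 fell with NFAT2-CA, and 2 rose and 3 fell with NFAT2-CARIT. The nearest, Tbrg4 at 32.5 kb, differed from Control by -0.66 ± 0.11 with NFAT2-CA (adjusted p = 3.86e-05) and -0.94 ± 0.11 with NFAT2-CARIT (adjusted p = 6.42e-07). H2az2, a histone variant gene 214.1 kb away, was the one that rose with both vectors (1.01 and 1.14, adjusted p = 6.62e-09 and 1.19e-09). Between the vectors, 4 of the 10 genes near Ramp3 were higher with NFAT2-CARIT and 0 lower, against 11.9% and 16.7% of all genes. Near Ramp1 and near Calcrl, 0 were higher and 1 was lower. These windows are again too few in genes to set apart from those shares.

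Of 9 tested genes within 300 kb of Ramp1, 6 fell and 2 rose with each vector, where 36.5% and 41.1% of all genes fell. The nearest, Rbm44 at 9.0 kb, rose by 0.49 with NFAT2-CA and 0.87 with NFAT2-CARIT (adjusted p = 0.0392 and 0.001), and the next, Ube2f at 25.1 kb, fell (-0.56 and -0.52, adjusted p = 6.68e-05 and 0.000121). Rbm44 was low, with means of 0.843, 1.60 and 2.38 CPM in Control, NFAT2-CA and NFAT2-CARIT. Its mean cleared the 1 CPM of the filter only with the vectors. Scly, 73.1 kb away, had the largest fall of the 6 (-0.76 and -0.86, adjusted p = 5.29e-06 and 1.14e-06). Of 6 tested genes within 300 kb of Calcrl, 2 rose and 0 fell with NFAT2-CA, and 2 rose and 1 fell with NFAT2-CARIT. The nearest, Tfpi at 7.4 kb, differed by -0.26 ± 0.14 with NFAT2-CA (adjusted p = 0.0999) and fell by 0.77 with NFAT2-CARIT (adjusted p = 9.9e-05). Selenoh (0.50 and 0.40, adjusted p = 0.000124 and 0.000914) and Tmx2 (0.29 and 0.45, adjusted p = 0.00096 and 1.43e-05) rose with both vectors.

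The rest of the pathway was described from 5 lists of 87 gene symbols, of which 60 were tested with limma. Against Control, 15 rose, 27 fell and 18 did not pass with NFAT2-CA, where 29.0% of all genes tested rose and 36.5% fell. With NFAT2-CARIT 21 rose, 27 fell and 12 did not pass, against 29.2% and 41.1% of all genes. NFAT2-CARIT against NFAT2-CA gave 15 higher, 12 lower and 33 not past, against 11.9% and 16.7%. The median difference over the 60 genes was -0.05 with NFAT2-CA and -0.02 with NFAT2-CARIT, beside -0.06 and -0.09 over all genes. These counts depend on the method, as do those over all genes. With TMM factors 23 of the 60 genes rose with NFAT2-CA and 26 fell, where 33.1% of all genes rose and 31.3% fell, so that rises outnumbered falls over all genes. The authors' deposited table has 12 up with NFAT2-CARIT, beside 1995 of all genes, and between the vectors 2 higher and 1 lower, beside 196 and 272 of all genes.

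Of the 5 ligand genes, Calca and Adm were analysed, both at low levels. Calca, which encodes calcitonin and CGRP by alternative splicing, was at 0.0425, 0.0315 and 0 CPM in Control, 1.30, 1.51 and 1.43 CPM in the NFAT2-CA libraries and 0.55, 0.467 and 0.2 CPM in the NFAT2-CARIT libraries. The NFAT2-CA libraries stood clear of all others. Calca rose with NFAT2-CA by 1.24 ± 0.17 (adjusted p = 5.97e-06) and NFAT2-CARIT lay below NFAT2-CA (-0.79 ± 0.17, adjusted p = 0.00196). It reached 1 CPM only with NFAT2-CA, and so entered the test through that group, and 3 reads equal 0.0786 to 0.15 CPM. Its difference of 0.45 ± 0.17 with NFAT2-CARIT (adjusted p = 0.0236) did not pass without Control replicate 2 (0.45, adjusted p = 0.0522) or 3 (0.43, adjusted p = 0.056), or without NFAT2-CARIT replicate 1 (0.37, adjusted p = 0.0962) or 2 (0.41, adjusted p = 0.0712). These counts do not separate CGRP from calcitonin transcripts.

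Adm, the adrenomedullin gene, was at 0.892, 0.63 and 1.46 CPM in Control, 2.38, 3.60 and 3.79 CPM in the NFAT2-CA libraries and 1.05, 1.40 and 1.10 CPM in the NFAT2-CARIT libraries. Control and NFAT2-CARIT libraries overlapped, and NFAT2-CA lay above both. Adm rose with NFAT2-CA by 1.10 ± 0.18 (adjusted p = 6.1e-05), differed by 0.15 ± 0.18 with NFAT2-CARIT (adjusted p = 0.48), and NFAT2-CARIT lay below NFAT2-CA (-0.95 ± 0.18, adjusted p = 0.00104). Both ligand genes were therefore highest with NFAT2-CA, where Ramp3 was at its intermediate and Ramp1 at its lowest level.

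Of 13 genes on the list of other receptors, which includes the coupling protein gene Crcp, 4 were analysed and 3 tested. Vipr1, a receptor for vasoactive intestinal peptide that also signals through Gs, fell from 118, 118 and 120.4 CPM in Control to 14.8, 15.9 and 15.8 CPM in the NFAT2-CA libraries and 15.3, 14.7 and 14.5 CPM in the NFAT2-CARIT libraries. Its differences were -2.86 ± 0.06 (adjusted p = 2.46e-15) and -2.92 ± 0.06 (adjusted p = 1.79e-15), with -0.06 ± 0.06 between the vectors (adjusted p = 0.534). Glp1r, the GLP-1 receptor gene, was at 0.085, 0 and 0.0417 CPM in Control, 0.0744, 0.419 and 0.506 CPM in the NFAT2-CA libraries and 2.20, 2.47 and 2.15 CPM in the NFAT2-CARIT libraries. NFAT2-CARIT was the single group in which it reached 1 CPM, and so passed the filter.

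Glp1r rose with NFAT2-CARIT by 1.65 ± 0.17 (adjusted p = 2.68e-07), and exceeded NFAT2-CA by 1.31 ± 0.17 (adjusted p = 3.17e-05). Its difference with NFAT2-CA was 0.34 ± 0.17 (adjusted p = 0.0904), or 0.49 without NFAT2-CA replicate 1 (adjusted p = 0.0242). Crcp, a small protein reported to couple the CGRP receptor to its signalling, was at 28.8 ± 1.21, 31.7 ± 1.69 and 33.3 ± 1.94 CPM in Control, NFAT2-CA and NFAT2-CARIT (SD, n = 3). Its difference with NFAT2-CARIT was 0.20 ± 0.07 (adjusted p = 0.0172), which did not pass without Control replicate 1 (0.19, adjusted p = 0.0571) or 2 (0.19, adjusted p = 0.0531) or NFAT2-CARIT replicate 1 (0.17, adjusted p = 0.0765). With NFAT2-CA it was 0.14 ± 0.07 (adjusted p = 0.104), and passed with TMM factors (0.21, adjusted p = 0.0173) and quantile normalization (0.18, adjusted p = 0.0355). Pth1r, the parathyroid hormone receptor gene, was at most 0.548 CPM and was not tested.

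**Figure D3:**
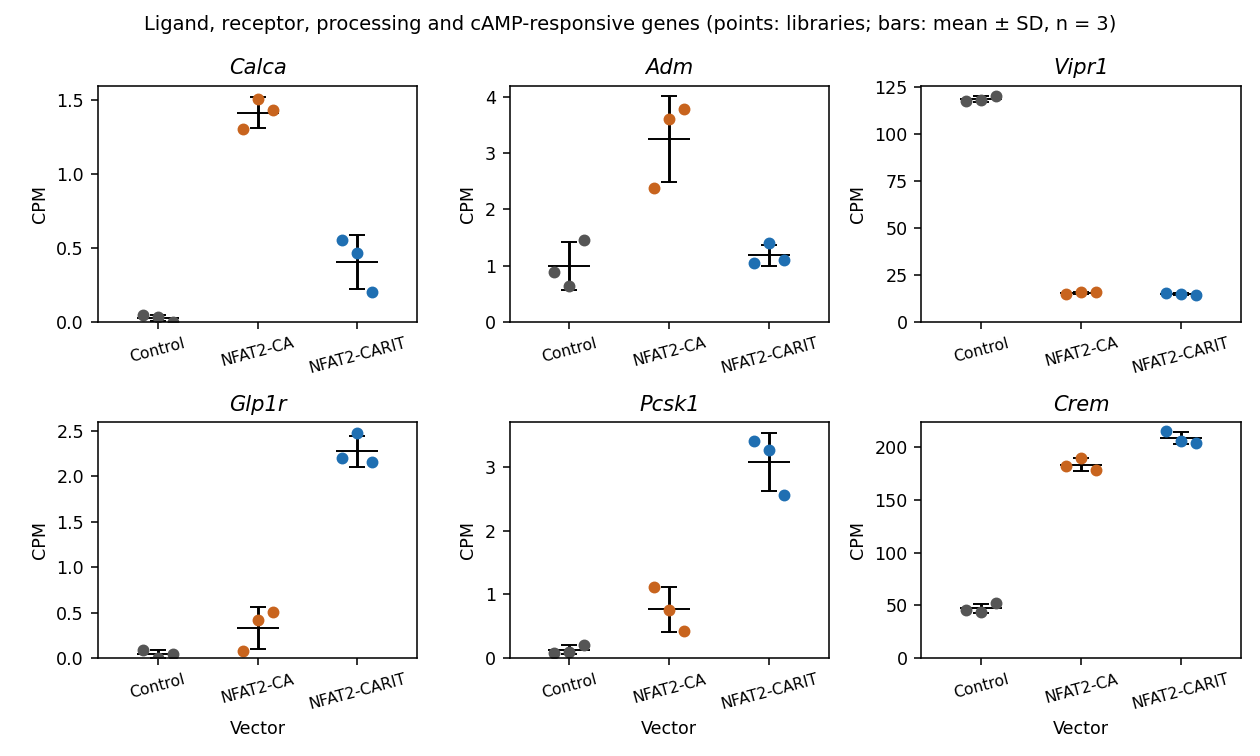
Levels in CPM of 2 ligand genes, 2 other receptor genes, the protease gene Pcsk1 and the cAMP-responsive gene Crem; points are libraries, bars mean ± SD (n = 3), and each panel has its own axis from 0. Calca and Adm are highest with NFAT2-CA, Glp1r and Pcsk1 with NFAT2-CARIT, and Vipr1 falls from 119 CPM to 15.5 and 14.8 CPM.

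Enzymes that mature or degrade these peptides were analysed for 6 of 11 genes. With NFAT2-CA 3 rose, 2 fell and 1 did not pass, and with NFAT2-CARIT 2 rose, 2 fell and 2 did not pass. Over all genes, 29.0% rose and 36.5% fell with NFAT2-CA, and 29.2% rose and 41.1% fell with NFAT2-CARIT. Pcsk1, a prohormone convertase, rose from 0.085, 0.0945 and 0.208 CPM to 1.11, 0.754 and 0.422 CPM with NFAT2-CA (adjusted p = 0.005; adjusted p = 0.182 with quantile normalization) and to 3.40, 3.27 and 2.56 CPM with NFAT2-CARIT (adjusted p = 9.35e-08). NFAT2-CARIT exceeded NFAT2-CA by 1.22 ± 0.18 (adjusted p = 8.05e-05), the same order as for Ramp3. Pcsk1 reached 1 CPM only in the NFAT2-CARIT libraries and in NFAT2-CA replicate 1. It thus passed the filter through NFAT2-CARIT, the group where it is highest. Dpp4, a peptidase of the T cell surface, fell from 150 ± 10.9 CPM to 72.0 ± 4.55 and 52.8 ± 2.86 CPM (differences -1.05 ± 0.07 and -1.49 ± 0.07, adjusted p = 1.3e-09 and 1.28e-11).

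Ece1, an endosomal protease that degrades CGRP, rose from 61.4 ± 3.62 to 75.2 ± 2.30 CPM with NFAT2-CA and 89.7 ± 1.73 CPM with NFAT2-CARIT (adjusted p = 0.000447 and 5.51e-07). Ide, the insulin-degrading enzyme, rose with NFAT2-CA from 68.4 ± 2.57 to 123 ± 1.95 CPM (0.84 ± 0.06, adjusted p = 1.93e-09). With NFAT2-CARIT it was at 59.9 ± 2.61 CPM, -0.19 ± 0.06 from Control (adjusted p = 0.00808, but -0.09 and adjusted p = 0.188 with TMM factors) and -1.03 ± 0.06 from NFAT2-CA (adjusted p = 2.94e-09). Furin, another prohormone convertase, fell with NFAT2-CA by 0.43 (adjusted p = 0.000108) and differed by -0.09 ± 0.08 with NFAT2-CARIT (adjusted p = 0.322, or -0.20 and 0.00517 without Control replicate 3). Pam, which amidates the C terminus of both peptides, differed by 0.12 ± 0.24 and 0.34 ± 0.24 (adjusted p = 0.666 and 0.218, the latter 0.56 and 0.0438 without Control replicate 1).

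Among genes of Gs and cAMP signalling, 33 were tested. With NFAT2-CA 7 rose, 16 fell and 10 did not pass (median -0.32), and with NFAT2-CARIT 11 rose, 17 fell and 5 did not pass (median -0.15). Over all genes tested, 29.0% rose and 36.5% fell with NFAT2-CA (median -0.06), and 29.2% rose and 41.1% fell with NFAT2-CARIT (median -0.09). Crem, which encodes cAMP-responsive activators and repressors, rose from 47.0 ± 4.18 CPM to 183 ± 5.85 and 208 ± 5.83 CPM (1.94 ± 0.06 and 2.13 ± 0.06, adjusted p = 2.04e-13 and 5.97e-14). Pkig, an inhibitor of protein kinase A, rose from 4.75 ± 0.609 to 11.4 ± 1.81 and 10.6 ± 0.588 CPM (adjusted p = 6.41e-07 and 1.32e-06).

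Falls in that list included components on both sides of cAMP, and those of Pde3b and Adcy3 were the largest with both vectors. Pde3b, a phosphodiesterase that degrades cAMP, fell from 548 ± 51.2 to 154 ± 8.05 and 159 ± 11.4 CPM (adjusted p = 2.46e-12 and 3.05e-12). Adcy3, an adenylyl cyclase that makes it, fell from 17.4 ± 0.493 to 4.29 ± 0.548 and 3.45 ± 0.675 CPM (adjusted p = 2.29e-09 and 3.64e-10), and the cyclase Adcy7 from 302 ± 3.82 to 152 ± 3.26 and 175 ± 16.8 CPM. Falls with NFAT2-CA and NFAT2-CARIT were also found for the cAMP sensor Rapgef4 (-1.21 and -1.74), the anchoring protein Akap1 (-1.21 and -1.76), the kinase subunit Prkacb (-0.88 and -1.07) and the CREB coactivator Crtc3 (-0.96 and -1.05).

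Receptor desensitization and trafficking genes numbered 16 tested. With NFAT2-CA 3 rose, 8 fell and 5 did not pass (median -0.07), and with NFAT2-CARIT 5 rose, 7 fell and 4 did not pass (median -0.05). The medians over all genes were -0.06 and -0.09, with 29.0% and 29.2% of them rising and 36.5% and 41.1% falling. Grk3, a kinase that desensitizes G protein coupled receptors, rose from 0.293 ± 0.181 CPM to 2.58 ± 0.34 and 7.13 ± 0.53 CPM (1.48 ± 0.15 and 2.66 ± 0.15, adjusted p = 2.38e-07 and 1.35e-10), and NFAT2-CARIT lay above NFAT2-CA (1.19 ± 0.15, adjusted p = 2.18e-05). Like Pcsk1 and Glp1r, Grk3 was below 1 CPM in Control. It entered the test through both vector groups, whereas Pcsk1 and Glp1r did so through NFAT2-CARIT.

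Rab5a, a GTPase of early endosomes, rose from 62.8 ± 1.45 to 106 ± 1.76 and 115 ± 2.56 CPM (adjusted p = 3.04e-09 and 4.8e-10). Slc9a3r1, a scaffold reported to bind RAMP3, fell from 167 ± 3.69 to 80.1 ± 1.57 and 71.2 ± 2.52 CPM (adjusted p = 5.47e-11 and 7.08e-12). Arrb2, an arrestin, fell from 212 ± 6.85 to 99.0 ± 6.83 and 91.2 ± 2.18 CPM, and the differences were -0.78 and -0.64 for the kinase gene Grk6 and -0.85 and -0.33 for Rab4a, a GTPase of recycling endosomes.

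**Figure D4:**
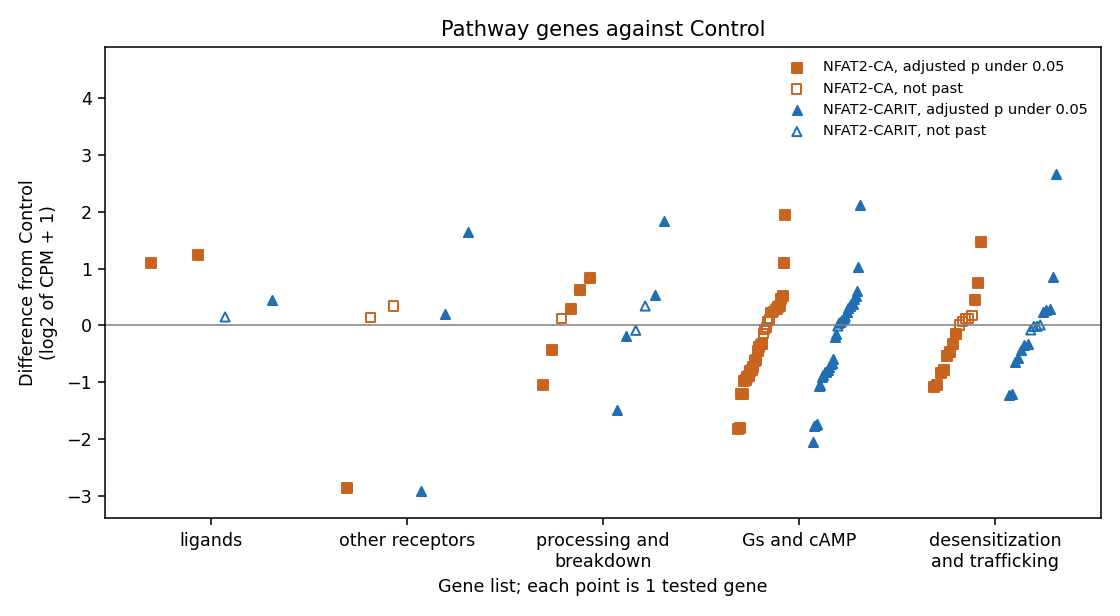
Difference from Control, on log2(CPM + 1), of each tested gene of the 5 lists with NFAT2-CA (squares) and NFAT2-CARIT (triangles); filled symbols have an adjusted p under 0.05. In the Gs and cAMP list 16 and 17 of 33 genes lie below 0 and pass, where 36.5% and 41.1% of all genes tested do. The extremes of the 5 lists are Vipr1 at -2.92 and Grk3 at 2.66.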

How the data were processed

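Whole-transcriptome libraries of 9 samples were deposited as CPM values, scaled by the authors to 1 total per library with 0.0001 added to every value (checked on the file and removed here). Per the submitters' processing notes, Partek 10, DESeq2 and build mm10 were used; which aligner and counter made them, and whether strand was used, no source used here says. The authors' deposited comparison table supplied FDR-adjusted p-values and log2 ratios, used only as an alternative. Depth came from the spacing of low values. Of values up to 1 CPM, 81.3% to 84.4% were whole reads within 0.1 read, under the 95% set for rebuilding counts, so no count test was run.

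limma 3.58.1 (R 4.3.3) was run on log2(CPM + 1) over all 9 libraries with a mean per group, robust empirical Bayes with a trend, and Benjamini-Hochberg adjustment, and was tested on simulated data. Genes with at least 1 CPM in at least 3 libraries were tested (13090), and called at an adjusted p under 0.05. Python 3.11.15 did the rest. An earlier report's filter of 10 CPM was an alternative, beside those in the closing section.

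The members and lists were chosen with earlier results of these data known. Named were all members, Nfatc1, every listed ligand, receptor and processing gene, and the called cAMP (up to 8) and trafficking (up to 5) genes with the largest difference in each comparison with Control. The 3 genes most like each member were also named, except 1 that is not reported here. Merged exon lengths came from GENCODE M21 and promoters from RefSeq (GRCm38.p6), where 3 of 3 members matched.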

Additional observations from a re-analysis of the deposited data

How the results depend on the processing

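The differences of Ramp1, Ramp3 and Calcrl kept their sign under all alternatives run: pseudocounts of 0.5 and 2, a filter of 10 CPM or none, quantile normalization, TMM factors, a fit of only the 6 libraries compared, the replicate block, leaving out each library and the authors' deposited table. For Calcrl between the vectors that says little, since the value was -0.00011 with quantile normalization. Ramp3 moved by less than the spread between replicates throughout. Ramp1 with NFAT2-CA differed from Control by -1.55 with a pseudocount of 2 and by -1.91 in the authors' deposited table. Calcrl with NFAT2-CARIT differed by -0.11 with TMM factors and -0.11 with quantile normalization. The authors' deposited table calls 3602 genes for NFAT2-CA and 4216 for NFAT2-CARIT against Control, and 468 between the vectors, beside 8574, 9200 and 3745 with limma. Among pathway genes, chosen as a check after seeing the data, that table has 12 higher with NFAT2-CARIT than Control, beside 1995 of all genes. Between the vectors it has 2 higher and 1 lower with NFAT2-CARIT, beside 196 and 272 of all genes. With TMM factors 23 of the 60 tested pathway genes were higher with NFAT2-CA, where 33.1% of all genes tested were higher. The cause was not tested. The labels do not say whether the replicate numbers pair the libraries. Correlations of same-numbered libraries were -0.069 to 0.26, and 2 of 9 were best with their own number. Those 2 were both between the vectors (0.092 and 0.26), so this check does not settle pairing. With the replicate block 8559, 9174 and 3544 genes were called. Leaving out a library gave 2785 to 4215 calls between the vectors. Genes near 3 reads, such as Calca and Glp1r in Control, are limited by depth.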
